A study of Homo sapiens with 17 samples.

Results

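The proteasome and immunoproteasome subunit genes are described here in MDA-MB-231 cells after addition of TRAIL. The genes were chosen by name and selected on their mean raw count: a symbol of PSM, a letter from A to G and a number, with a mean of at least 20 counts over the 17 libraries. Of 58870 entries of the deposited table, 48 carried such a name and 46 were kept, 43 genes of the standard proteasome and its helpers and the 3 immunoproteasome genes PSMB8, PSMB9 and PSMB10, which are described apart. PSMA8, the testis form of an alpha subunit, had a mean count of 0, and PSMB11, the thymus form of a catalytic subunit, had a mean count of 0.059. The lowest mean count inside the threshold was that of PSMB10, 624, and the highest was that of PSMD2, 11167. All 46 genes passed the filter on low counts of the test. They were also detected in all 17 libraries, so none of them entered through 1 group alone.

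MDA-MB-231 is an established line of human triple-negative breast cancer cells, labelled as mesenchymal and basal B. Its cells received 45 nM TRAIL, a TNF family ligand of death receptors, and RNA was taken at 0, 1, 3, 6, 12 and 24 h, with 3 libraries at each time and 2 at 1 h. All groups share the line, the medium (RPMI with serum) and the treatment label, which the 0 h libraries also carry, and no library of untreated cells at a later time was analysed, so the effects of TRAIL and of the hours in culture cannot be told apart. The labels do not say whether the replicates were separate cultures, and the p-values measure the spread between these libraries only. Of the mesenchymal markers, all 7 were detected, with VIM between 2495 and 3724 CPM (counts relative to the scaled library total). Of the epithelial and luminal markers, CDH1 lay at or below 1.01 CPM and ESR1 and PGR at or below 0.148, but KRT8 lay between 804 and 1142, KRT18 between 522 and 931, ERBB2 between 56.4 and 70.9 and EPCAM between 13.1 and 19.3 CPM. Of the leukocyte markers, CD3E had a count of 0 in all libraries and PTPRC lay at or below 0.334 CPM, while CD68 lay between 57.6 and 98.2 CPM.

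The proteasome is the protease that breaks down proteins tagged with ubiquitin. Its core particle, the 20S, is a stack of rings of alpha (PSMA) and beta (PSMB) subunits, of which PSMB5, PSMB6 and PSMB7 cut the chain; caps made of PSMC ATPases and PSMD subunits, or the PSME activators, open the core, and the PSMG chaperones assemble it. Interferon and NF-kappaB signals can replace the cutting subunits by PSMB8, PSMB9 and PSMB10, the immunoproteasome, whose products are favoured for display on class I molecules. NRF1 (NFE2L1) is known to raise proteasome genes together when proteolysis is blocked.

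Library totals ran from 13731520 to 19234924 counts, and the members together took from 0.843% to 0.950% of a library. The libraries differed in a trend that followed transcript length. Its slope, in log2 per doubling of length, lay from -0.139 to -0.0635 at 3 h, from -0.0641 to -0.0130 at 0 h, from 0.0149 to 0.0986 at 6 h and from 0.0235 to 0.134 at 24 h. The members' median transcript was 1426 bases long against 2334 for all genes. Values after removal of the trend with length and GC content are therefore given for many of the genes named, beside the result or in the account of length below. They are not given for all, and a missing value does not mean that the result was unaffected. Replicates 2 and 3 of 6 h and of 24 h were close to each other, with a chi-square per gene of 1.55 and 1.68 against 3.86 to 14.6 in the other replicate pairs, although above the 1 that sampling noise alone would give, and were kept as separate libraries.

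At 0 h the members spanned a wide range of levels, here compared between genes as CPM per kb of transcript. PSMA7, an alpha ring subunit, stood highest at 410 ± 16 (SD, n = 3), followed by PSMB1 at 390.1 ± 14.5 and PSMB4 at 322 ± 17.3, both structural beta subunits. PSMB7 followed at 321 ± 12.3, and PSMB4 and PSMB7 differed by less than their spread. PSME4, the activator PA200, stood lowest at 11.8 ± 0.550, below PSMF1, the inhibitor PI31, at 31.2 ± 1.05. The immunoproteasome genes ranked at 24, 38 and 44 of the 46: PSMB8 at 103 ± 6.42, PSMB9 at 54.0 ± 3.00 and PSMB10 at 35.3 ± 2.20 CPM per kb. Their standard counterparts stood higher, PSMB5 at 185 ± 3.33, PSMB6 at 191 ± 1.76 and PSMB7 at 321 ± 12.3, so each standard catalytic gene exceeded the gene that replaces its product in every 0 h library. The order is a description, since levels of different genes share the libraries and an assumed median transcript length.

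The immunoproteasome genes sit in 2 places of the genome. PSMB8 (chromosome 6, 32840717 to 32844703, minus strand) and PSMB9 (chromosome 6, 32844136 to 32859585, plus strand, GENCODE 29 on GRCh38) lie side by side in the MHC region with overlapping gene models, and PSMB10 lies on chromosome 16 (67934502 to 67937087, minus strand). PSMB9 starts back to back with TAP1, the peptide transporter of class I display, so that a short stretch holds both promoters. The 250 bases before the RefSeq start of each (GRCh38.p14, 5′ to 3′ on the gene's strand) are shown, for the neighbours PSMB8, PSMB9 and TAP1 and for PSMB10, because their levels are followed one by one below. Capitals mark matches on either strand to GGGNNTTCC or GGGNNNTTC (NF-kappaB type), GAAANNGAA (interferon response type), TTCNNNGAA (STAT type) and TGACNNNGC (antioxidant response type, which NRF1 and NRF2 also bind).
PSMB9, chr6:32853942-32854191, plus strand: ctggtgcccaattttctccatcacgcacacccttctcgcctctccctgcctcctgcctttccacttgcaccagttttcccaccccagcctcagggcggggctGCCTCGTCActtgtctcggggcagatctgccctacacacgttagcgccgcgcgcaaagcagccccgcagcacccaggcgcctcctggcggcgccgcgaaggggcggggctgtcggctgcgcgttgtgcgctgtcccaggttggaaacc
TAP1, chr6:32853705-32853954, minus strand: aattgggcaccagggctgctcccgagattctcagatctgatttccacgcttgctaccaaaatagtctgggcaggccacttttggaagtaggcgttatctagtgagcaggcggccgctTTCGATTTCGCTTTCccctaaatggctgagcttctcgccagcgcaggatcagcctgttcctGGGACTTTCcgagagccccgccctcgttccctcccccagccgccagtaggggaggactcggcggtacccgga
PSMB8, chr6:32844048-32844297, minus strand: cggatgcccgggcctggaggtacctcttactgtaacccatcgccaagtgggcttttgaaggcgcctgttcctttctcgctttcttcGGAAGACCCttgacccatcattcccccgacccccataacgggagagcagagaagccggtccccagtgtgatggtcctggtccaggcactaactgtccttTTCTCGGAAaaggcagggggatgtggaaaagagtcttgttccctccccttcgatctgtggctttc
PSMB10, chr16:67936851-67937100, minus strand: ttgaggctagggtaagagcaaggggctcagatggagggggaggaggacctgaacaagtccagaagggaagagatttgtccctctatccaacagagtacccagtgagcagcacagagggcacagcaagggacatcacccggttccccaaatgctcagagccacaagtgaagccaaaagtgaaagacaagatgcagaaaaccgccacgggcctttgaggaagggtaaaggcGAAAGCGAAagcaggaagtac
The TAP1 start shown is the more upstream of its RefSeq starts, and the window of the other held a TTCNNNGAA match alone. The stretch shown held a GGGNNNTTC match and overlapping GAAANNGAA matches, the PSMB10 stretch 1 GAAANNGAA match, and the PSMB9 stretch 1 TGACNNNGC match. The PSMB8 start shown, the more downstream of its RefSeq starts, held 1 GGGNNTTCC and 1 TTCNNNGAA match, and a GAAANNGAA match ran across the start itself. A match is a description of these letters and no evidence of binding.

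PSMB8, whose product replaces PSMB5, was not called against 0 h at any time. Its level was 124, 114 and 109 CPM in the 0 h libraries, 116 and 129 in the 1 h libraries, and 128, 131 and 120.2 in those of 3 h. It was 113, 107 and 101 in the 6 h libraries, 113, 107 and 113 in those of 12 h, and 116, 98.9 and 103 in the 24 h libraries. Values at every later time overlapped those at 0 h. The log2 fold change against 0 h was 0.13 ± 0.069 (SE) at 3 h (edgeR adjusted p = 0.206), -0.11 ± 0.069 at 6 h (0.218), then -0.056 ± 0.068 at 12 h (0.635) and finally -0.12 ± 0.069 at 24 h (0.168). The decline came between 3 and 6 h, with a log2 difference of -0.24 ± 0.069 (adjusted p = 0.00777) and no overlap between these libraries. After correction for length and GC content that difference was 0.0020 (adjusted p = 0.977), and PSMB8 differed from 0 h by 0.048, 0.021 and 0.044 at 6, 12 and 24 h, with the opposite sign. Without replicate 1 of 24 h the 24 h value was -0.20 and passed the threshold (adjusted p = 0.0325).

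PSMB9, whose product replaces PSMB6, was not called against 0 h, and its highest time mean was 1.13 times its lowest, against 1.19 for PSMB8 and 1.51 for PSMB10. It was measured at 43.0, 44.6 and 40.0 CPM in the 0 h libraries, 40.9 and 40.8 in those of 1 h, and 46.3, 47.4 and 39.4 in the 3 h libraries. The values were 38.5, 37.9 and 40.9 in those of 6 h, 41.7, 35.1 and 42.9 in the 12 h libraries, and 46.5, 40.0 and 41.6 in those of 24 h. Every time overlapped 0 h. Its log2 fold change lay between -0.12 ± 0.086 at 6 h (adjusted p = 0.311) and 0.060 ± 0.087 at 3 h (0.671), and the 24 h value was 0.0062 ± 0.086 with a 95% interval from -0.17 to 0.19. It also missed the threshold when all times were tested together (edgeR F-test, adjusted p = 0.381). PSMB9 has a short transcript of 787 bases, and after the length and GC correction its 24 h value was 0.23 (adjusted p = 0.00708), past the threshold. Without replicate 3 of 0 h or replicate 1 of 24 h the uncorrected 24 h value turned to -0.040 and -0.061.

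PSMB10, whose product replaces PSMB7, fell at 6 and 24 h. Its levels were 46.0, 42.3 and 40.8 CPM in the 0 h libraries, 44.9 and 51.1 in those of 1 h, and 49.2, 56.4 and 42.2 in the 3 h libraries. They were 36.3, 31.6 and 32.0 in those of 6 h, 36.3, 30.8 and 39.2 in the 12 h libraries, and 38.7, 30.7 and 28.5 in those of 24 h. From 6 h on, every library lay below every 0 h library. The log2 fold change was 0.19 ± 0.12 by 3 h (adjusted p = 0.267), then -0.37 ± 0.12 at 6 h (0.0260), -0.28 ± 0.12 at 12 h (0.125) and -0.40 ± 0.12 at 24 h (0.0157), that is 0.775, 0.822 and 0.760 of the 0 h level at the last 3 times. Between 3 and 6 h it fell by 0.56 ± 0.12 on the log2 scale (adjusted p = 0.00111). The calls against 0 h were not firm: the 6 h value was -0.32 without replicate 1 of 0 h, -0.38 without replicate 2 of 0 h, -0.33 without replicate 2 of 6 h and -0.34 without replicate 3 of 6 h. The 24 h value was -0.35 without replicate 1 of 0 h, -0.35 without replicate 2 of 24 h and -0.31 without replicate 3 of 24 h, each time short of the threshold. With the length and GC correction the values were -0.18 at 6 h (adjusted p = 0.0735) and -0.19 at 24 h (0.0523), and -0.31 between 3 and 6 h (0.00225). In bulk RNA, fewer cells that express a gene and less of its RNA per cell cannot be told apart.

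Without the length and GC correction, no rise of the immunoproteasome genes was called against 0 h at any of the 5 times by edgeR; with it, PSMB9 was called higher at 24 h (0.23, adjusted p = 0.00708). At 1 h edgeR called 0 of the 3, with 0 at an unadjusted p below 0.05, where 0.26% of all genes tested were called higher and 0.0521% lower. The highest upper end of a 95% interval over the 3 genes and 5 times was 0.44 on the log2 scale, a 1.36-fold level, for PSMB10 at 3 h. The lowest lower end was -0.65, a 0.639-fold level, for PSMB10 at 24 h. All 3 had counts divided between genes: PSMB8 and PSMB10 were not whole numbers in 17 libraries and PSMB9 in 13.

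**Figure D1:**
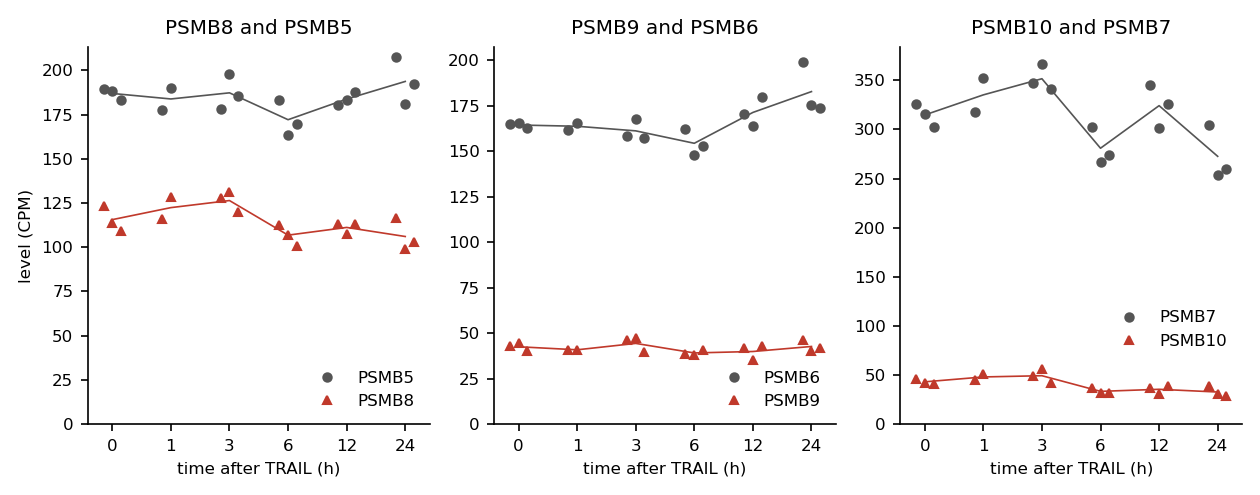
Level in CPM (vertical axis, from 0) of each immunoproteasome gene (triangles) and the standard catalytic gene it pairs with (circles) in each library, against time after TRAIL in h; lines join the means of each time. PSMB9 stays between 35.1 and 47.4 CPM throughout, and the PSMB10 points from 6 h on lie below its 0 h points.

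The standard catalytic genes served as the comparison inside each library. PSMB5, the chymotrypsin-like subunit, was measured at 189, 188 and 183 CPM in the 0 h libraries, 178 and 190.0 in those of 1 h, 178, 198 and 186 in the 3 h libraries, 183, 164 and 169 in those of 6 h, 180.1, 183 and 188 in the 12 h libraries, and 208, 181 and 192 in those of 24 h. It overlapped 0 h at every time and was not called against 0 h, with log2 fold changes between -0.12 ± 0.060 (adjusted p = 0.141) and 0.052 ± 0.060 (0.529), but with the length and GC correction its 24 h value was 0.22 (adjusted p = 0.000636), past the threshold. PSMB6, the caspase-like subunit, was measured at 165, 166 and 163 CPM in the 0 h libraries, 162 and 166 in those of 1 h, 159, 168 and 157 in the 3 h libraries, 162, 148 and 153 in those of 6 h, 170.4, 164 and 179.8 in the 12 h libraries, and 199, 175.5 and 174 in those of 24 h. It rose at 24 h by 0.15 ± 0.059 (adjusted p = 0.0490), without overlap, and by 0.36 with the length and GC correction, which also gave -0.15 at 3 h (0.0140) and 0.15 at 12 h (0.0199). PSMB7, the trypsin-like subunit, was measured at 326, 316 and 302 CPM in the 0 h libraries, 318 and 353 in those of 1 h, 347, 367 and 341 in the 3 h libraries, 302, 267 and 274 in those of 6 h, 346, 302 and 326 in the 12 h libraries, and 305, 253 and 259.9 in those of 24 h. It fell at 24 h by 0.21 ± 0.073 (adjusted p = 0.0333), with 1 of the 24 h libraries above the lowest 0 h library, and this call was absent after the correction. The 24 h calls of PSMB6 and PSMB7 were not followed gene by gene with 1 library left out.

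The ratio of immunoproteasome to standard message was taken within each library. The log2 ratio of PSMB8 to PSMB5 was -0.62, -0.73 and -0.74 in the 0 h libraries and -0.84, -0.87 and -0.90 in the 24 h libraries, a mean difference of -0.17 without overlap. The ratio of PSMB9 to PSMB6 was -1.94, -1.89 and -2.03 at 0 h and -2.10, -2.13 and -2.06 at 24 h, a difference of -0.15. For PSMB10 to PSMB7 the difference from 0 h was -0.20, -0.33 and -0.20 at 6, 12 and 24 h, again without overlap. Each of these had an exact two-sided permutation p of 0.1, the smallest that 3 libraries against 3 allow, and 0.25 after adjustment over the 15 ratio tests, so no ratio passed the threshold. At 3 h the differences were 0.13, 0.087 and 0.028, and at 1 h, where 2 libraries cannot give an exact permutation p below 0.2, they were 0.11, -0.050 and 0.068.

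TAP1, which starts back to back with PSMB9, rose from 6 h on. TAP1 was measured at 97.2, 108 and 104 CPM in the 0 h libraries, 103 and 103 in those of 1 h, 117, 114 and 109 in the 3 h libraries, 142, 139.9 and 141 in those of 6 h, 125, 126 and 132 in the 12 h libraries, and 136, 129 and 123 in those of 24 h. All libraries from 3 h on lay above all 0 h libraries. TAP1 rose by 0.45 at 6 h (adjusted p = 1.2e-05), 0.31 at 12 h (0.00131) and 0.33 at 24 h (0.000239). The within-library log2 ratio of PSMB9 to TAP1, tested after this difference had been seen, differed from 0 h by -0.57 at 6 h, -0.40 at 12 h and -0.32 at 24 h without overlap (exact two-sided permutation p = 0.1 each, 0.167 adjusted over 5 tests). With the length and GC correction TAP1 was 0.54, 0.37 and 0.41 above 0 h at 6, 12 and 24 h, and PSMB9 was 0.075, 0.0079 and 0.23 above it.

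**Figure D2:**
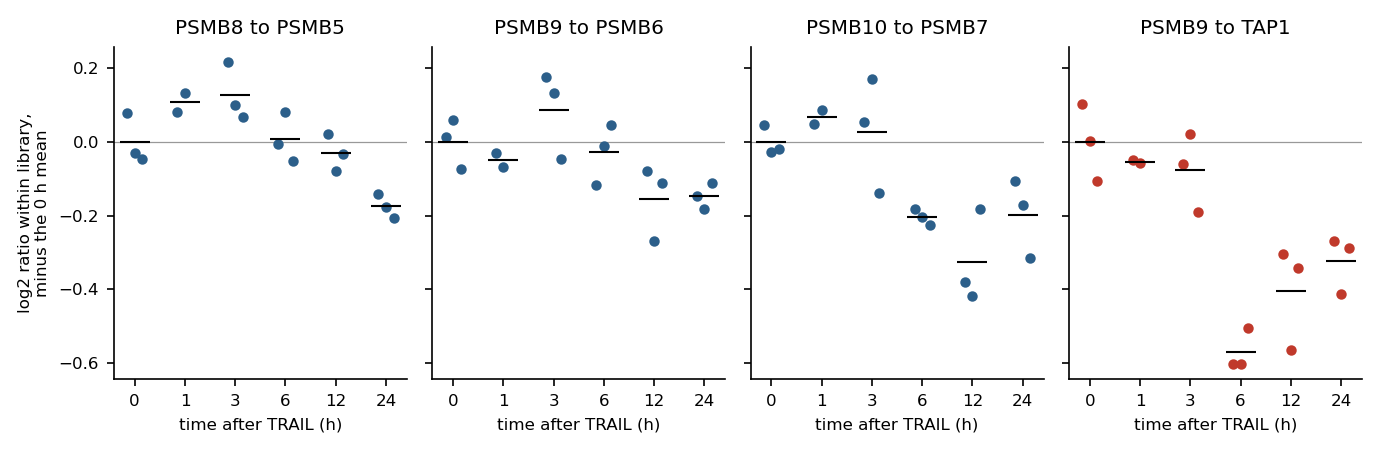
Log2 ratio of 2 genes within each library, minus the mean of the 0 h libraries (vertical axis), against time after TRAIL in h; points are libraries and bars are means. PSMB9 to TAP1 is lowest at 6 h, with a mean of -0.57, while PSMB8 to PSMB5 and PSMB9 to PSMB6 stay within 0.3 of their 0 h means.

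Genes known to control or to work with the immunoproteasome were followed in the same fit. At 3, 6, 12 and 24 h, 9.04%, 16.9%, 5.96% and 18% of all genes were called higher, and 8.71%, 13.2%, 6.48% and 17.1% were called lower. Of 10 regulators, 4 rose and 1 fell at 3 h, 7 rose and 1 fell at 6 h, 5 rose at 12 h and 9 rose at 24 h, with a median log2 fold change of 0.13, 0.37, 0.20 and 0.41 against -0.0041, -0.022, -0.0032 and -0.0017 for all genes. RELB and NFKB2, which form the non-canonical NF-kappaB dimer, rose by 1.20 and 1.01 at 3 h and by 1.28 and 0.99 at 6 h. IRF1, an interferon regulatory factor known to act on PSMB9 and TAP1, rose by 0.31 at 3 h (adjusted p = 0.00329) and fell by 0.18 at 6 h (0.0488), which was -0.097 (0.243) with the length and GC correction. At 12 and 24 h all 10 regulators, IRF1 among them, had positive values, the lowest of the 10 being 0.024 and 0.12. Of 16 genes of class I display, 1 fell at 3 h, 4 rose at 6 h, 1 rose and 4 fell at 12 h, and 4 rose and 5 fell at 24 h. When all times were tested together 11 of the 16 differed, beside 64.2% of all genes. Among them, the aminopeptidase ERAP1 rose by 0.53 at 6 h and 0.55 at 24 h, or 0.36 and 0.33 with the correction. In the other direction, the lowest log2 fold changes of the 16 were -0.47 at 12 h and -0.54 at 24 h.

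The size of the changes of the 43 standard genes over time is described without a matching value for all genes. The ratio of the highest to the lowest time mean had a median of 1.21 over these genes and ran from 1.03 for PSMB2, a structural beta subunit, to 2.03 for PSMG4, a core chaperone. No member differed from 0 h by 2-fold at any time, and the largest absolute log2 fold change was 0.66. When all times were tested together, 32 of the 43 differed between times, beside 64.2% of all genes tested, and PSMB8 and PSMB10 did too (adjusted p = 0.0159 and 0.000596). Against 0 h, 26 were called at some time and 17 at none, where 56.8% of all genes were called at some time. At 1 h edgeR and DESeq2 called 0 of 43 in either direction, and 0 had an unadjusted p below 0.05.

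**Figure D3:**
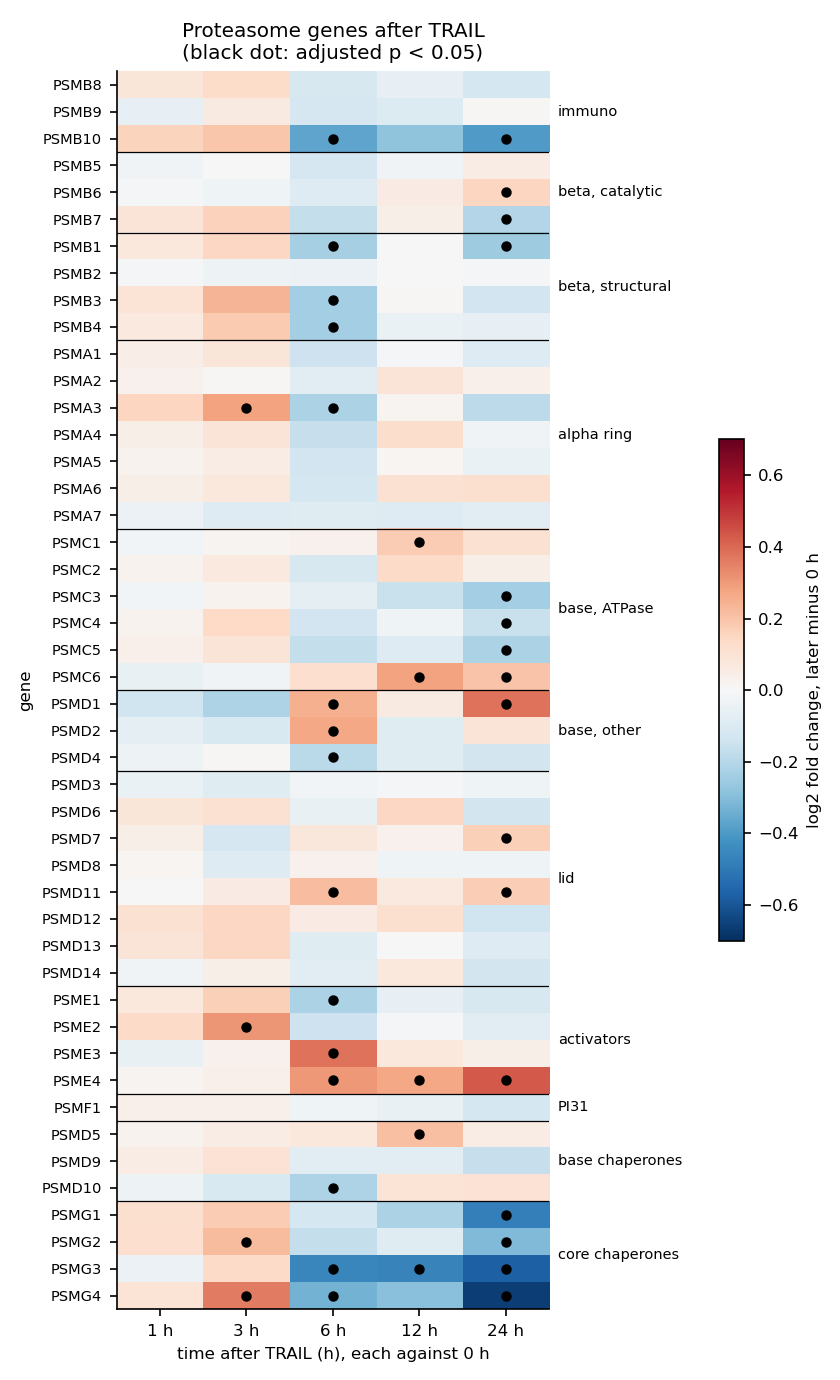
Log2 fold change against 0 h (colour, red higher and blue lower) of the 46 genes (rows, grouped by role) at 1, 3, 6, 12 and 24 h (columns); a black dot marks an adjusted p below 0.05. The core chaperones PSMG1 to PSMG4 are blue with a dot at 24 h, and the 1 h column has no dot.

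At 3 h, 4 of the 43 rose and 0 fell by edgeR, where 9.04% of all genes were called higher and 8.71% lower. Their median log2 fold change was 0.057, against -0.0041 for all genes, and 33 of 43 had a positive sign. PSMG4, a subunit of the chaperone that starts the alpha ring, was measured at 55.9, 53.9 and 46.1 CPM at 0 h and 69.9, 73.0 and 57.6 in the 3 h libraries, a rise of 0.36 ± 0.11 (adjusted p = 0.0310). PSME2, the beta chain of the interferon-inducible activator PA28, stood at 184, 171 and 181 CPM at 0 h and 217, 234 and 214 in those of 3 h, a rise of 0.31 ± 0.081 (0.0132). PSMA3, an alpha ring subunit, stood at 274, 235 and 247 CPM and then at 307, 306 and 305, a rise of 0.28 ± 0.077 (0.0166). The fourth gene was PSMG2, another core chaperone, with 0.22 ± 0.074 (0.0419). No library of 3 h overlapped one of 0 h for these genes. The share of all called genes without such overlap was not counted, here or below. Of the falls, 0 passed and 2 had an unadjusted p below 0.05, and DESeq2 also called 0 lower.

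The 3 h calls depended on 1 library each time. PSMA3 missed the threshold without replicate 2 of 0 h (0.23), replicate 3 of 0 h (0.27) or replicate 1 of 3 h (0.28), PSME2 without replicate 2 of 0 h (0.28) or replicate 2 of 3 h (0.27), and PSMG4 and PSMG2 in 5 and 9 of 27 alternatives. The number higher was 0 without replicate 2 of 0 h and 1 without replicate 3 of 0 h, replicate 1 of 3 h or replicate 2 of 3 h, and the number lower was 1 without replicate 1 of 0 h or replicate 3 of 3 h. Scaling by library size alone called 3 higher and 4 lower, and the length and GC correction called 5 higher and 5 lower, among them all 4 of the genes above and, lower, PSMA7 (-0.21, adjusted p = 0.00279) and PSMD7 (-0.23, 0.00382).

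At 6 h the standard genes split, 5 higher and 9 lower, where 16.9% of all genes were called higher and 13.2% lower. Their median was -0.091, against -0.022 for all genes, and 11 of 43 had a positive sign. PSME3, the nuclear activator PA28 gamma, was measured at 199, 219 and 223 CPM in the 0 h libraries, 262, 285 and 287 in those of 6 h, and 222, 230.4 and 222 in the 12 h libraries. It rose at 6 h by 0.38 ± 0.059 (adjusted p = 0.000142) and was again near its 0 h level at 12 h, where it fell by 0.31 from 6 h (0.0012). PSMD2, the large base subunit that docks ubiquitin receptors, took 623, 766 and 675 CPM at 0 h and 772, 853 and 869 in those of 6 h, a rise of 0.27 ± 0.067 (0.00523). PSME4 took 79.6, 84.9 and 87.2 CPM at 0 h and 98.5, 105 and 108 in the 6 h libraries, a rise of 0.30 ± 0.072 (0.00392). The other members higher at 6 h were PSMD1, the second large base subunit (0.25), and PSMD11, a lid subunit (0.22). None of the 5 overlapped 0 h.

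The genes lower at 6 h included 3 of the 4 structural beta genes: PSMB4 (-0.24), PSMB3 (-0.24) and PSMB1 (-0.23). With the length and GC correction these were -0.080, -0.054 and -0.090, and none was called. PSMG3 fell most. It was measured at 52.6, 49.0 and 47.5 CPM in the 0 h libraries, 37.3, 36.9 and 34.4 in those of 6 h, 37.6, 33.1 and 37.4 in the 12 h libraries, and 38.9, 29.6 and 31.8 in those of 24 h. Its log2 fold change was -0.46 ± 0.098 at 6 h (adjusted p = 0.00197) and -0.47 ± 0.098 at 12 h (0.00425), each time without overlap. PSMG4, the partner of PSMG3, went from its 3 h high to 45.3, 39.2 and 39.4 CPM in the 6 h libraries, -0.33 ± 0.11 against 0 h (0.0338). The others were PSME1, the alpha chain of PA28 (-0.22), PSMA3 (-0.22), the base chaperone PSMD10 (-0.22) and the ubiquitin receptor PSMD4 (-0.19).

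The count of 9 lower genes at 6 h was 3 without replicate 1 of 0 h, 1 without replicate 2 of 6 h and 1 without replicate 3 of 6 h. It was 1, PSMG3 at -0.26 (adjusted p = 0.00263), after the length and GC correction, which called 8 higher. PSMG4 lost its call in 7 of 27 alternatives, among them without replicate 1 of 0 h (-0.28), replicate 2 of 0 h (-0.30), replicate 2 of 6 h (-0.30) or replicate 3 of 6 h (-0.30). PSME4 was 0.10 after the correction (0.0685), and PSMD1 was 0.19 without replicate 1 of 0 h and 0.23 without replicate 2 or 3 of 6 h, short of the threshold. PSME3, PSMD2, PSMD11 and PSMG3 kept their calls under all 27 alternatives.

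Among the comparisons made, 6 h against 3 h had the most calls. Of the 43 standard genes, 6 rose and 21 fell between these times, where 22.9% of all genes were called higher and 20.3% lower, with a median of -0.16 against -0.020 for all genes. The falls were led by PSMG4 (-0.69), PSMG3 (-0.60) and PSMA3 (-0.50), and the rises by PSMD1 (0.46), PSMD2 (0.38) and PSME3 (0.35). All 4 core chaperones fell, as did 5 of 7 alpha ring genes, 3 of 4 structural beta genes and 3 of 6 ATPase genes, while 2 of 8 lid genes rose and 2 fell. None of these 27 calls had libraries that overlapped, which was not set against the share of all called genes. Scaling by library size alone gave 8 higher and 16 lower, and the length and GC correction 10 higher and 17 lower, of which 4 and 14 were among the 6 and 21. Within the role groups above, the correction kept the falls of the core chaperones and structural beta genes. PSMA4, PSMA6, PSMC5, PSMD6 and PSMD13 lost their falls and PSMD11 its rise. PSMA7 (0.29), PSMC6 (0.16), PSMD3 (0.14) and PSMD8 (0.28) were called higher, and PSMB2 (-0.13) and PSMD12 (-0.27) lower. Between 1 and 3 h edgeR and DESeq2 called 0 of 43, 2 had an unadjusted p below 0.05, and 3.17% and 2.56% of all genes were called higher and lower.

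**Figure D4:**
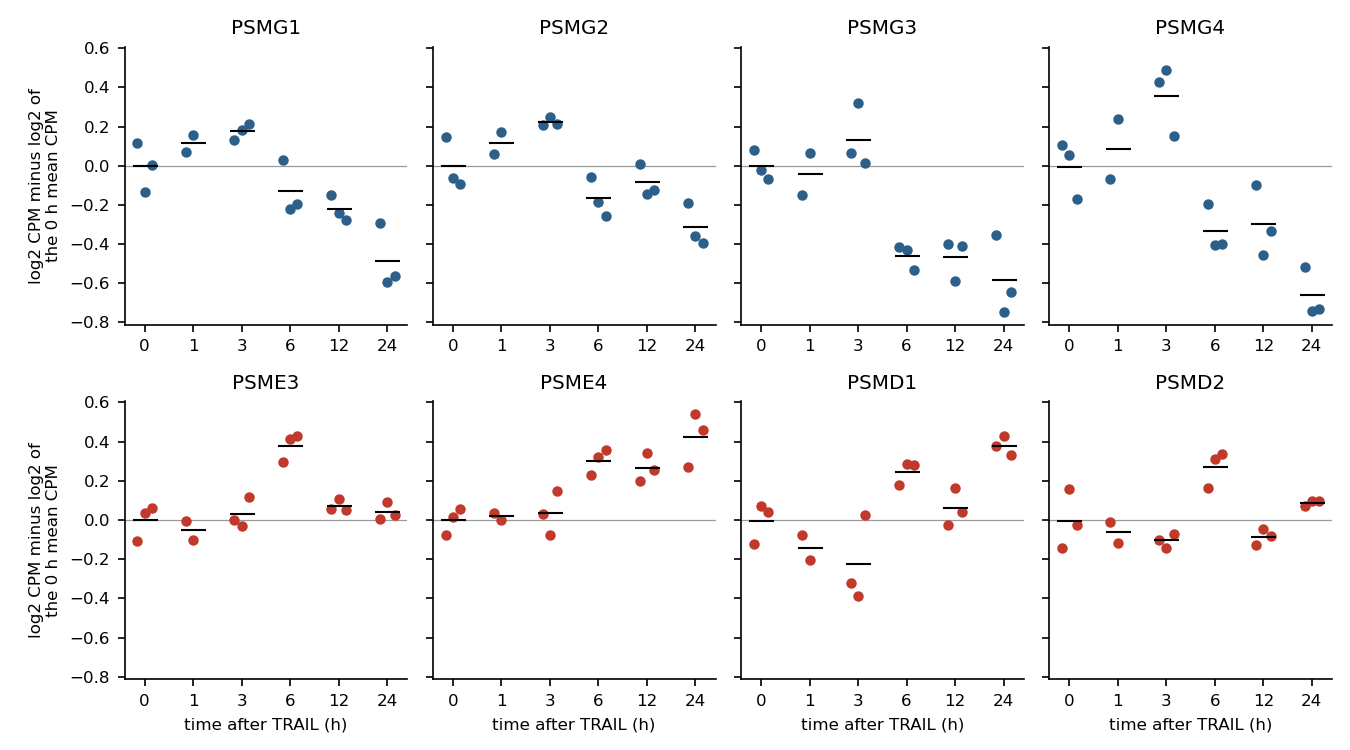
Log2 CPM minus the log2 of the mean CPM at 0 h (vertical axis) of the 4 core chaperones (upper row) and of 4 genes that rose at 6 h (lower row), against time after TRAIL in h; points are libraries and bars are means. The chaperones lie above 0 at 3 h on average and below 0 in every 24 h library, PSME3 and PSMD2 peak at 6 h, and PSME4 and PSMD1 are highest at 24 h.

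At 12 h few standard genes differed from 0 h: 4 were higher and 1 lower, where 5.96% and 6.48% of all genes were called, and the median was 0.0017 against -0.0032. PSMC6, an ATPase of the base, was measured at 134, 127 and 141 CPM at 0 h and 159, 168 and 160.0 in the 12 h libraries, a rise of 0.28 ± 0.062 (adjusted p = 0.00628). PSME4 stood at 96.5, 106 and 100.3 CPM, a rise of 0.27 ± 0.071 (0.0183). PSMD5, a chaperone of the base, went from 86.5, 80.4 and 91.1 to 97.8, 106 and 94.3 CPM, a rise of 0.21 ± 0.065 (0.0401), and PSMC1, another ATPase, rose by 0.18 ± 0.056 (0.0421). These 4 genes did not overlap 0 h, and PSMC6 and PSMC1 had counts that were not whole numbers in 17 and 16 libraries. PSMG3 was the gene that fell.

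Most of the 12 h calls depended on 1 library. The number higher was 1 without replicate 1 of 0 h, replicate 2 of 0 h or replicate 2 of 12 h, and 2 without replicate 1 of 3 h or replicate 1 of 12 h. The number lower was 2 without replicate 3 of 3 h, replicate 1 of 12 h or replicate 1 of 24 h. PSME4 was 0.23 without replicate 1 of 0 h, 0.28 without replicate 2 of 0 h and 0.23 without replicate 2 of 12 h, each short of the threshold, and PSMD5 and PSMC1 lost their calls in 8 and 15 of 27 alternatives. PSMC6 and PSMG3 kept theirs in all 27. From 6 to 12 h, 8 genes rose and 3 fell (8.7% and 11.9% of all genes). The rises were led by PSMD10 (0.31) and PSMA4 (0.28) and the falls by PSMD2 (-0.36) and PSME3 (-0.31). Library size alone gave 16 and 2, and the correction 5 and 8. The 8 became 14 without replicate 1 of 6 h, 2 without replicate 2 of 6 h, 4 without replicate 3 of 6 h, 4 without replicate 1 of 12 h and 15 without replicate 1 of 24 h.

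At 24 h all 4 core chaperones were lower than at 0 h. PSMG1 and PSMG2 form one chaperone of the alpha ring and PSMG3 and PSMG4 the other. PSMG4 took 36.4, 31.1 and 31.3 CPM in the 24 h libraries, a fall of 0.66 ± 0.11 on the log2 scale to 0.634 of the 0 h level (adjusted p = 0.000420). PSMG3 fell by 0.57 ± 0.099 (0.000305), to 0.674 of its 0 h level. PSMG1 went from 118, 98.7 and 109 CPM at 0 h to 88.4, 71.8 and 73.3, a fall of 0.48 ± 0.083 (0.000309). PSMG2 went from 96.7, 83.8 and 81.9 to 76.8, 68.1 and 66.6 CPM, a fall of 0.31 ± 0.074 (0.00357). No 24 h library overlapped a 0 h library for any of them. All 4 kept direction and call under all 27 alternatives, and with the length and GC correction they were -0.44, -0.35, -0.43 and -0.22. The base chaperones PSMD5, PSMD9 and PSMD10 were not called at 24 h (0.053, -0.16 and 0.10), but PSMD10 was called higher with the correction (0.24, adjusted p = 0.00817).

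Over the 43 standard genes, 6 were higher and 9 lower at 24 h, where 18% of all genes were called higher and 17.1% lower, with a median of -0.079 against -0.0017. PSME4 was highest, at 101, 122 and 115 CPM, a rise of 0.43 ± 0.071 (adjusted p = 0.000222). PSMD1 went from 129, 148 and 145 CPM at 0 h to 183, 189 and 177, a rise of 0.38 ± 0.085 (0.00234), after 113, 108 and 143 in the 3 h libraries. PSMC6 took 165, 151 and 146 CPM in those of 24 h, a rise of 0.20 ± 0.062 (0.0166). None of these overlapped 0 h. PSMD11 (0.17), PSMD7 (0.17) and PSMB6 (0.15) were the others higher. Beside the chaperones, PSMB1 (-0.25), PSMC3 (-0.24), PSMC5 (-0.22), PSMB7 (-0.21) and PSMC4 (-0.16) fell, so that within the ring of 6 ATPases 1 gene rose and 3 fell. With the length and GC correction PSMC3 kept its call (-0.10, adjusted p = 0.0278), while PSMC5 (-0.12, 0.0506), PSMC4 (-0.026, 0.632) and PSMB1 (-0.11, 0.0736) did not.

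The 9 lower genes became 5 without replicate 1 of 0 h, replicate 2 of 24 h or replicate 3 of 24 h and 16 without replicate 1 of 24 h, and the 6 higher genes became 3 without replicate 1 of 0 h or replicate 1 of 24 h. PSMC6 was 0.16 without replicate 2 of 0 h and 0.15 without replicate 1 of 24 h, short of the threshold. Scaling by library size alone gave 8 higher and 5 lower, and the length and GC correction 10 higher and 9 lower, of which 5 and 5 were among the 6 and 9. PSME4 and PSMD1 were 0.17 (adjusted p = 0.00309) and 0.27 (0.00297) after the correction and kept their calls under all 27 alternatives. From 12 to 24 h, 1 gene rose (PSMD1, 0.32) and 6 fell, led by PSMG4 (-0.36) and PSMD6 (-0.27), where 6.42% and 5.6% of all genes were called, and library size alone gave 2 and 3 and the correction 5 and 7. Without replicate 1 of 24 h these were 2 and 12, without replicate 2 or 3 of 24 h 0 and 1, without replicate 1 of 12 h 0 and 1, and without replicate 3 of 12 h 0 and 3.

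Of the 7 alpha ring genes, 1 was called at 3 h and 1 at 6 h, PSMA3 both times, and none at 12 or 24 h, with medians between -0.13 and 0.075. Of all genes, 9.04% were called higher at 3 h, 16.9% were called higher and 13.2% lower at 6 h, and the 24 h shares were 18% higher, 17.1% lower. With the length and GC correction PSMA6 was called higher at 24 h (0.22, adjusted p = 0.000357). Of the 8 lid genes, 1 was higher at 6 h and 2 at 24 h, and PSMD3, PSMD6, PSMD8, PSMD12, PSMD13 and PSMD14, which include the deubiquitinase PSMD14, were not called against 0 h at any time. With the correction PSMD8 was called higher at 6 h (0.17, adjusted p = 0.00255) and 24 h (0.11, 0.0487), and PSMD12 (-0.25, 0.0255) and PSMD14 (-0.13, 0.0281) lower at 24 h. Of the 4 activators, PSME3 and PSME4 rose at 6 h while PSME1 fell, and PSME2 had -0.15 there after its rise at 3 h. PSMF1 was not called by edgeR at any time, with values from -0.12 to 0.037, but with the correction it was called lower at 24 h (-0.24, adjusted p = 0.00162).

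The members' changes went with their transcript length and, most at 12 h, with their GC content. Across the 46 genes, Pearson's r between the log2 fold change and log2 length was -0.31 at 1 h and -0.35 at 3 h, then 0.69, 0.34 and 0.40 at 6, 12 and 24 h, against -0.080, -0.14, 0.24, 0.14 and 0.28 across all genes with a length. With GC content r was -0.31, -0.66 and -0.37 at 6, 12 and 24 h, against -0.15, -0.19 and -0.18 across all genes. Genes share the libraries and are not independent replicates, so these are descriptions. The genes that rose at 6 h are longer than the members' median: PSMD2 2633, PSME3 3082, PSMD1 3196, PSMD11 3317 and PSME4 7099 bases. Other long genes were not called at 6 h, among them PSMF1 (3686 bases), PSMD12 (3422) and PSMC2 (2637). The structural beta genes other than PSMB2 (3459 bases) have 773 to 964 bases. PSMB2 was the structural beta gene not called at 6 h, with -0.042, or -0.13 (adjusted p = 0.0540) with the correction. The part of length in these calls was not tested. Beside the calls given above, the correction for both added PSMC4 higher (0.10) and PSMD10 (-0.23) and PSMD1 (-0.19) lower at 3 h, PSMD5 (0.15), PSMC6 (0.16) and PSMD7 (0.21) higher at 6 h, PSMG4 (-0.20) and PSMG1 (-0.23) lower at 12 h, and PSME2 higher (0.13) and PSMB2 lower (-0.14) at 24 h. It took away the call of PSMC1 at 12 h (0.13, adjusted p = 0.0935) and that of PSMD11 at 24 h (0.078, 0.126).

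**Figure D5:**
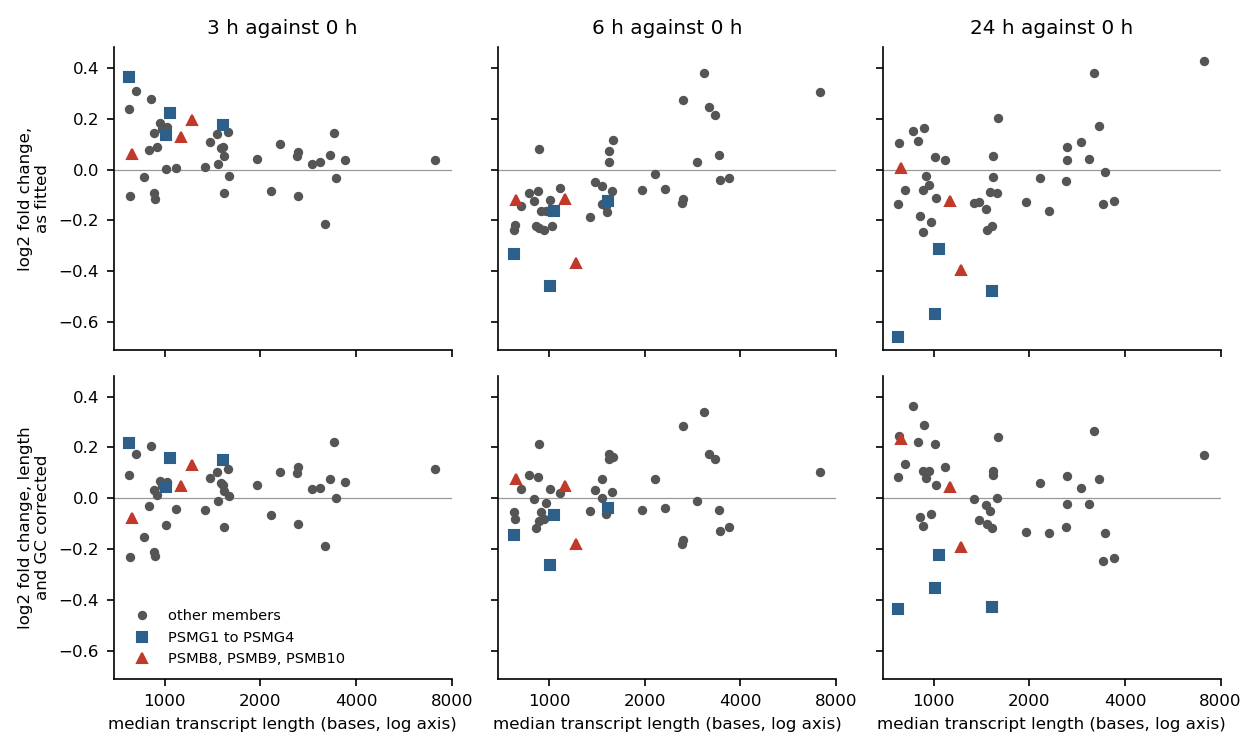
Log2 fold change against 0 h (vertical axis) of the 46 genes against their median transcript length in bases (horizontal log axis) at 3, 6 and 24 h, as fitted (upper row) and after the length and GC correction (lower row). At 6 h the uncorrected points rise with length (r = 0.69), and the core chaperones (squares) stay below 0 at 24 h in both rows.

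Promoter letters were compared over the members with a RefSeq window. Windows of 300 bases (250 before and 50 after the start) were found for 40 of the 46 genes, 49 windows in all. TGACNNNGC was in 15 of 49 windows (30.6%) against 13.3% of all 35116 windows, GAAANNGAA in 8 (16.3% against 8.11%), TTCNNNGAA in 7 (14.3% against 7.66%), GGGNNTTCC in 5 (10.2% against 6.57%) and GGGNNNTTC in 5 (10.2% against 15.5%). Genes with the TGACNNNGC pattern went in either direction at 24 h, as PSME4 and PSMG1 show, each printed for the 250 bases before its start.
PSME4, chr2:53970994-53971243, minus strand: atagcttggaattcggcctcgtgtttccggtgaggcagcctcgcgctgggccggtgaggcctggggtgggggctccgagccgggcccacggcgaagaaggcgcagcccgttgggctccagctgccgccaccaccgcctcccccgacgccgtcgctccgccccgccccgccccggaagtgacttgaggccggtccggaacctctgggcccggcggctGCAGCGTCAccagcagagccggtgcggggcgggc
PSMG1, chr21:39183452-39183701, minus strand: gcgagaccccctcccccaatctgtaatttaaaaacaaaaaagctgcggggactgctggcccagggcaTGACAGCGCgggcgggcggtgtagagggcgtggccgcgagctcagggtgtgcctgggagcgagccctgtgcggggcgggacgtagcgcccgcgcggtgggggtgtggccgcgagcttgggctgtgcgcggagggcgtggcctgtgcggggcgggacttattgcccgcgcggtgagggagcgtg
The capitals mark the pattern, which reads on the strand opposite to the one printed for PSME4 and on the printed strand for PSMG1. PSME4 rose by 0.43 and PSMG1 fell by 0.48 at 24 h.

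Counts in the last 3 lists stand beside the same shares of all genes, 9.04%, 16.9%, 5.96% and 18% called higher and 8.71%, 13.2%, 6.48% and 17.1% called lower at 3, 6, 12 and 24 h. Of 9 genes that control proteasome genes through NRF1 and NRF2, 3 rose and 1 fell at 3 h, 6 rose at 6 h, 1 rose at 12 h and 7 rose at 24 h, with medians of 0.087, 0.25, 0.057 and 0.23. NFE2L1 itself fell by 0.30 at 3 h (adjusted p = 0.00293) and rose by 0.32 at 24 h (0.000774). DDI2, the protease that activates it, rose by 0.55 at 6 h (0.0012) and 0.41 at 24 h (0.00717), the latter 0.14 (0.0962) with the length and GC correction. NFE2L2 (NRF2) rose by 0.32 at 6 h (0.00764) and 0.23 at 24 h (0.0397).

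Of 10 proteasome partners, 1 rose and 1 fell at 3 h, 3 rose at 6 h, 1 rose at 12 h, and 2 rose and 1 fell at 24 h, with medians between -0.056 and 0.069. SEM1, the smallest lid subunit, rose by 0.48 at 3 h (adjusted p = 0.00871) and fell by 0.33 at 24 h (0.0342), the latter -0.18 (0.112) with the correction. ECPAS, a proteasome-binding scaffold, rose at 6, 12 and 24 h by 0.26, 0.17 and 0.22, calls that the correction took away (0.073, 0.053 and -0.032), and the ubiquitin ligase UBE3C rose by 0.40 at 6 h and 0.30 at 24 h. POMP, the maturation factor of the core, had 0.23 at 3 h and -0.22 at 6 h and was not called against 0 h, but fell by 0.46 between these times (0.000512).

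Of 14 genes of ubiquitin supply and delivery, 1 rose and 2 fell at 3 h, 7 rose and 2 fell at 6 h, 1 rose and 1 fell at 12 h, and 8 rose and 3 fell at 24 h, with medians of -0.027, 0.15, 0.019 and 0.20. RPS27A, which encodes ubiquitin fused to a ribosomal protein, fell by 0.29 on the log2 scale at 24 h (adjusted p = 0.0231), and was -0.14 (0.0565) with the correction. The shuttle UBQLN1, which carries tagged proteins to the proteasome, rose by 0.42 at 6 h (0.000676) and 0.42 at 24 h (0.000572), and the activating enzyme UBA1 rose by 0.18 and 0.20 at these times.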

How the data were processed

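RNA from MDA-MB-231 cells at 6 times after TRAIL was sequenced as stranded poly(A) paired-end libraries, per the labels' protocols. The authors deposited 1 table of gene-level expected counts (estimated numbers of fragments, RSEM by its name), with no scaling to depth or length; 10.8% of the values were not whole. The submitters' processing notes name cutadapt 1.18, STAR 2.7.0f and hg38; the annotation and strand setting of the counting are not given in the sources used here. Of 58870 entries, 58597 matched GENCODE 29 by Ensembl identifier without version, from which positions and transcript lengths were taken.

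The members, their role groups and the lists of regulators, class I display, NRF1 and NRF2 control, partners and ubiquitin genes were chosen with earlier results of these data known. Expected counts were rounded. Genes kept by filterByExpr (15365) were fitted with edgeR 4.0.16 (R 4.3.3): TMM factors from 0.939 to 1.06, 1 mean per time over all 17 libraries, robust quasi-likelihood tests, common biological coefficient of variation 7.06%. A gene is called, and said to rise or fall, at a Benjamini-Hochberg adjusted p below 0.05 over all genes tested. SE is the absolute log2 fold change over the root of F. Overlap of libraries is given as a description only, without the share of all genes. CPM uses TMM-scaled totals. Ratios used exact two-sided permutation tests. Named genes were PSMB5 to PSMB10 and, per time, the 3 highest and 3 lowest called members, with others added beside their group. The length and GC correction removed from each library a spline trend on both. Other alternatives were RLE scaling, library size alone, no filter, DESeq2 1.42.0, a replicate block, fits of the 2 groups compared, close replicates averaged, a mean count of 100 and each library left out. The script was tested on simulated data. Promoter windows are from RefSeq (GRCh38.p14); the pattern GGGNNNTTC and the correction of the gene lists were added after seeing the data.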

Additional observations from a re-analysis of the deposited data

How the results depend on the processing

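Deviations from the time means, over all genes tested, correlated from -0.20 to 0.21 between libraries of the same number (40 pairs). Between other libraries they correlated from -0.16 to 0.20 (80 pairs). An effect of the replicate number on some genes only could be missed by these correlations. The slope with transcript length was lowest in replicate 1 at 0, 6, 12 and 24 h (-0.064, 0.015, -0.026 and 0.023), but not at 1 or 3 h. The replicate block kept all 77 results, and its counts of standard genes at 24 h were 5 higher and 10 lower. Over all alternatives 1535 of 1714 values were kept. Of 23 calls of standard genes followed one by one, 12 were kept under every alternative. These 23 were the 3 highest and 3 lowest called members per time, without the immunoproteasome genes, and some added beside them. The PSMB10 calls and other calls given above, among them PSMB6 and PSMB7 at 24 h, were not among the 23. A test was kept if direction and side of the threshold held, and a count if it stayed within 1.5 times. Ratios were judged by direction alone, since they could not pass the threshold. The cause of the differences was not tested, except that averaging and leaving out leave fewer libraries. RLE scaling changed no count by over 1.5 times. All 46 members had a mean count of at least 100, so that alternative held the same genes and could change nothing. It is nevertheless counted among the alternatives, as kept.

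The length and GC correction gave, against 0 h, 5 lower at 3 h, 8 higher and 1 lower at 6 h, 3 lower at 12 h and 10 higher at 24 h; 1 lower for 3 against 1 h; 10 higher for 6 against 3 h; 5 higher and 8 lower for 12 against 6 h; and 5 higher for 24 against 12 h. With the replicate block added these were 5, 8 and 2, 3 and 10; 1 lower and 1 higher; 10; 5 and 8; and 6. Under the correction PSMB8 turned to 0.048, 0.021 and 0.044 at 6, 12 and 24 h (with the block 0.049, 0.022 and 0.044). PSMB9 turned to -0.077, 0.075 and 0.0079 at 3, 6 and 12 h (with the block -0.077, 0.074 and 0.0069) and was called at 24 h with 0.23 (0.23). PSMB10 lost its calls with -0.18 (-0.18) at 6 h and -0.19 at 24 h, but with the block added its 24 h call was kept.

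With close replicates averaged, the standard genes were 2 higher at 3 h, 1 lower at 6 h, 2 higher at 12 h, and for 24 h 3 higher and 5 lower, 2 higher for 12 against 6 h, and 0 in either direction for 24 against 12 h; PSMB10 was -0.35 at 6 h and -0.34 at 24 h, short of the threshold. Library size alone gave 4 lower at 3 h, 5 lower at 24 h, 16 higher for 12 against 6 h, 2 higher and 3 lower for 24 against 12 h, and PSMB9 at -0.0096 at 3 h. No filter gave 1 lower at 3 h, 3 lower at 12 h, 3 higher at 24 h, and PSMB10 called at -0.28 at 12 h. DESeq2 gave 2 lower at 12 h. Fits of only the 2 groups compared gave 2 lower at 12 h, 3 higher at 24 h, 3 lower for 24 against 12 h, and PSMB9 at -0.0022 at 24 h.

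Leaving out 1 library gave 0 to 6 higher and 0 to 1 lower at 3 h, 1 to 13 lower at 6 h, 1 to 4 higher and 1 to 2 lower at 12 h, and 3 to 6 higher and 5 to 16 lower at 24 h. It gave 2 to 15 higher for 12 against 6 h and 0 to 2 higher and 1 to 12 lower for 24 against 12 h. PSMB8 at 24 h ran from -0.20 to -0.076, PSMB9 at 24 h from -0.061 to 0.052, PSMB10 at 6 h from -0.43 to -0.32 and at 24 h from -0.54 to -0.31. The ratio of PSMB8 to PSMB5 ran from -0.029 to 0.047 at 6 h and from -0.056 to 0.0093 at 12 h, PSMB9 to PSMB6 from -0.065 to 0.018 at 6 h, and PSMB10 to PSMB7 from -0.043 to 0.11 at 3 h. With 3 libraries a time and 2 at 1 h, ratios could not pass the threshold.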

Other observations

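Entries that carry a subunit's name but are not subunit genes also held counts. The antisense entry PSMA3-AS1 had a mean of 579 counts (403 to 696 over the 17 libraries), PSMB8-AS1 a mean of 213 (173 to 258) and PSMG3-AS1 a mean of 45.8 (28 to 88). Among pseudogenes, PSMC1P1 had a mean of 279 counts (152 to 437), PSME2P2 81.2 and PSMC1P5 58.4, and PSMC1 and PSME2, the genes they copy, had counts that were not whole in 16 and 11 libraries. PSMC3IP, a recombination factor named for its binding to PSMC3, had a mean of 527. The part of shared reads in the values of the subunit genes was not tested.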
